A study of Arachis hypogaea with 14 samples.

Results

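The miR167 family was followed in peanut (Arachis hypogaea) seeds through all small RNA entries named miR167 or MIR167, on both strands of the precursor hairpin, together with the degradome sites listed for the same small RNA names. Members were chosen by name alone, with 1 row for each different sequence, which gave 14 of the 795 sequences in the deposited small RNA table. Of these, 8 were forms of the 5p guide strand, 5 were forms of the 3p passenger strand and 1 was another piece of the 5p arm. The seeds came from 2 recombinant inbred lines, 8106 with medium pods and 8107 with very large pods, each harvested 15 and 35 days after flowering (DAF), with 3 small RNA libraries in each of the 4 groups of line and stage. A further 2 degradome libraries, 1 per line, carried both stages. No treatment is named in the labels, whole seed was the tissue, the parents of the lines are not named, and nothing in the labels tells whether the 3 libraries of a group are from different plants, so a p-value here reflects the spread among libraries, which could be technical.

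In plants, a miRNA duplex is cut from the arms of a hairpin precursor. The guide strand is loaded into an Argonaute protein and directs the cutting of matching mRNAs, while the passenger strand is usually degraded. miR167 is a conserved guide strand that in Arabidopsis targets the mRNAs of ARF6 and ARF8, auxin response factors that activate auxin-regulated genes and act in flower, ovule and seed development.

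The guide forms are shown because the differences among them lie at their ends, with the seed (bases 2 to 8 from the 5′ end) in capitals. The first 3 letters of a name stand for the species whose registered miRNA was matched (ahy, peanut; mdm, apple; mtr, Medicago truncatula; gma, soybean; csi, sweet orange; lus, flax).
ahy-miR167-5p: tGAAGCTGccagcatgatctt
mdm-miR167b: tGAAGCTGccagcatgatcta
mtr-miR167a_1ss21AC: tGAAGCTGccagcatgatctc
mtr-miR167b-5p: tGAAGCTGccagcatgatctg
gma-miR167c_L+1_1ss22GT: cTGAAGCTgccagcatgatctt
mtr-miR167a_L+1R-2: cTGAAGCTgccagcatgatc
csi-miR167b_L+1R-1: aTGAAGCTgccagcatgatct
lus-miR167b_L+2: tCTGAAGCtgccagcatgatctt

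All 8 held the same 19 bases, TGAAGCTGCCAGCATGATC. The 4 forms that start where ahy-miR167-5p starts shared the seed GAAGCTG and differed from one another at the last base, T21A in mdm-miR167b, T21C in mtr-miR167a_1ss21AC and T21G in mtr-miR167b-5p (positions from 1 at the 5′ end, the base of ahy-miR167-5p first). A further 3 forms carried 1 extra 5′ base, which moves the seed to TGAAGCT, and lus-miR167b_L+2 carried 2, which moves it to CTGAAGC. The 22 nt sequence of gma-miR167c_L+1_1ss22GT is also listed as gma-miR167k_L+1R-1_1ss15CA and was counted once.

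The passenger forms (ppe, peach; sly, tomato; ptc, poplar) are shown because they divide by seed.
ahy-miR167-3p_L-1: gATCATGTggcagtttcacc
ppe-MIR167c-p3_1ss11TG: gATCATGTgggagcttcatc
ptc-miR167f-3p_L-1_1ss11GA: gATCATGTgacagtttcacc
mtr-MIR167a-p3_1ss14TC: gGTCATGCtgtgccagcctcact
sly-miR167b-3p: aGGTCATCtagcagcttcaat

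Folded as a duplex with ahy-miR167-5p, ahy-miR167-3p_L-1 formed 18 base pairs, of which 17 were Watson-Crick pairs and 1 was a G-U pair. The mtr and sly passengers gave the same numbers, the ppe form 17 pairs and the ptc form 16. The ppe, ptc and ahy passengers shared the seed ATCATGT, ppe-MIR167c-p3_1ss11TG differing from the ahy form at C11G, T14C and C19T and the ptc form at G10A. The remaining 5p entry, gma-MIR167k-p5_2ss1AT17TG, is a 19 nt piece that does not hold the 19 bases of the guide.

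Values are the authors' normalized reads per library, by a method not given in the sources used here. The listed entries summed to between 464658 and 1086380 normalized reads in a library, from an estimated 580011 to 3243195 reads, with 580011 to 1178757 in 8107 and 1482576 to 3243195 in 8106 at 35 DAF. In 11 of the 12 libraries the smallest listed value corresponded to 6 reads, so a listed 0 leaves room for a few reads. In the remaining library, number 2 of 8106 at 35 DAF, it corresponded to 0.5 of a read. The estimate of 3243195 reads is of that library and is less certain. The labels' protocol isolates cDNA fractions of 22 to 30 nt, whereas the most abundant miR167 form is 21 nt long, and whether this step set any level was not tested. In whole seeds, fewer cells of a type and less of a small RNA per cell cannot be told apart.

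ahy-miR167-5p, the 21 nt guide strand, was the most abundant entry of the table by mean and ranked first in 11 of the 12 libraries and second in the other. Its level in the 3 libraries of 8106 was 203913, 218322 and 216991 normalized reads at 15 DAF and 406251, 491869 and 401955 at 35 DAF. In 8107 it was 182635, 213654 and 187910 at 15 DAF and 185429, 202558 and 171057 at 35 DAF. The 3 libraries of 8106 at 35 DAF stood above all 9 others, and within each of the other comparisons the groups overlapped. It made up 29.9 to 33.1% of a library's listed reads at 15 DAF in 8106, 30.1 to 33.3% in 8107, 40.0% to 45.3% at 35 DAF in 8106 and 36.8 to 38.4% at 35 DAF in 8107, so that both lines held a larger share at the later stage.

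Differences were tested with limma on log2(normalized reads + 1) over the 395 entries at 10 or more normalized reads in at least 3 of the 12 libraries, with Benjamini-Hochberg adjusted p under 0.05 as the threshold. On this scale ahy-miR167-5p rose from 15 to 35 DAF in 8106 by 1.02 ± 0.14 (SE; limma adjusted p = 0.000201), which is 2.03-fold. In 8107 the same stage difference was -0.06 ± 0.14 (limma adjusted p = 0.737). At 35 DAF the level was lower in 8107 than in 8106, with a log2 difference of -1.21 ± 0.14 (limma adjusted p = 4.15e-05), and at 15 DAF the difference was -0.13 ± 0.14 (limma adjusted p = 0.566). The stage change itself differed between the lines by -1.08 ± 0.20 (limma adjusted p = 0.00154).

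The line difference of ahy-miR167-5p at 35 DAF depended on how libraries were scaled. With libraries set to equal totals it was -0.16 and was no longer called, against a median of all entries that moved from 0.03 to 1.01. Quantile normalization gave 0, because the entry that ranks first in each library then receives the same value, and median centring gave -1.61. The rise in 8106 remained called with equal totals (0.41) and median centring (1.23) and not with quantile normalization (0.28). In 8107, equal totals of the entries other than miR167, a setting chosen after seeing the data, turned the stage difference to 0.45, past the threshold.

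**Figure D1:**
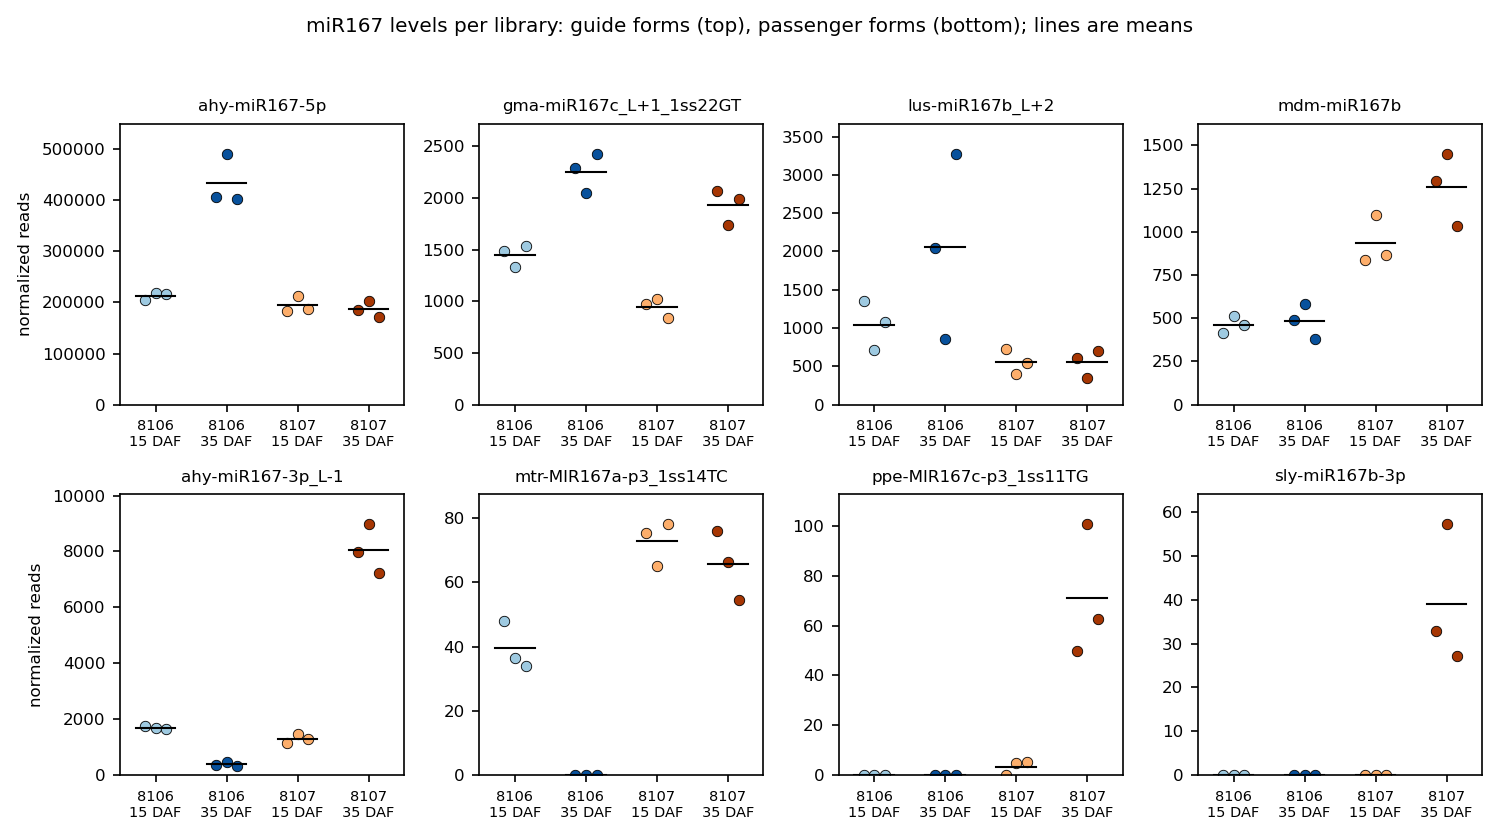
Normalized reads (y axis, linear, separate scale per panel) of the 4 most abundant guide forms (top) and the 4 most abundant passenger forms (bottom) in each library, by line and stage; points are libraries and lines are group means. ahy-miR167-5p is highest in 8106 at 35 DAF, and ahy-miR167-3p_L-1 is lowest in that group and highest in 8107 at 35 DAF.

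The variant guide forms together made up a small part of the 5p strand, since ahy-miR167-5p held 97.5 to 99.1% of it in every library. Within that remainder the forms differed in which group held most of them. The 3 forms of 21 nt that end in a base other than T together took 0.39 ± 0.06% of the 5p strand in 8106 at 15 DAF and 0.23 ± 0.04% at 35 DAF, against 0.65 ± 0.05% and 0.99 ± 0.07% in 8107 (mean ± SD, n = 3). A scaling factor per library cancels in these shares, which were not tested.

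mdm-miR167b, which ends in A, was the largest of them. It stood at 415, 512 and 463 normalized reads in 8106 at 15 DAF, 489, 583 and 380 at 35 DAF, 836, 1096 and 867 in 8107 at 15 DAF and 1296, 1452 and 1033 at 35 DAF. Every library of 8107 was above every library of 8106. It was higher in 8107 by 1.00 ± 0.19 at 15 DAF (limma adjusted p = 0.00457) and by 1.39 ± 0.19 at 35 DAF (limma adjusted p = 0.000126), the first call being lost with median centring (0.76). As a share of the 5p strand it was 0.200 to 0.231% and 0.0929 to 0.119% in 8106 at the earlier and later stage, and 0.451 to 0.506% and 0.589 to 0.702% in 8107. Its stage difference in 8107 was 0.43 ± 0.19 (limma adjusted p = 0.0874), and with the replicate number as a block that difference was past the threshold (limma adjusted p = 0.0114), as it was with both kinds of equal totals (0.76 and 0.95). Its stage change differed between the lines by 0.38 ± 0.27 (limma adjusted p = 0.274), called with both kinds of equal totals (1.32 and 1.27). In 8106 it was 0.05 ± 0.19 (limma adjusted p = 0.897), and equal totals turned it to -0.56, past the threshold.

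mtr-miR167b-5p, which ends in G, stood at 59.96, 102 and 89.8 normalized reads in 8106 at 15 DAF, 71.1, 92.8 and 63.7 at 35 DAF, 77.8, 64.4 and 40.7 in 8107 at 15 DAF and 165, 158 and 177 at 35 DAF. The 3 libraries of 8107 at 35 DAF stood above all others. It rose with stage in 8107 by 1.48 ± 0.27 (limma adjusted p = 0.00141), and was higher in 8107 than in 8106 at 35 DAF by 1.14 ± 0.27 (limma adjusted p = 0.00522), a call lost with quantile normalization (0.65) and median centring (0.74). Its stage change differed between the lines by 1.61 ± 0.38 (limma adjusted p = 0.00707), a call also lost with quantile normalization (1.19).

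mtr-miR167a_1ss21AC, which ends in C, ranged from 199 to 383 normalized reads in 8106 at 15 DAF, 347 to 698 at 35 DAF, 245 to 379 in 8107 at 15 DAF and 397 to 557 at 35 DAF. The lines overlapped at each stage, and so did the stages of 8106 but not those of 8107. It passed in none of the 5 comparisons, though with the replicate block its stage difference was past the threshold in both lines (0.65 in 8106, limma adjusted p = 0.0164; 0.63 in 8107, limma adjusted p = 0.0157), and that in 8107 also with both kinds of equal totals (0.96 and 1.15). At 35 DAF equal totals gave 1.03 and equal totals without miR167 gave 0.97, both past the threshold, where the log2 difference between the lines was -0.02 ± 0.31 (limma adjusted p = 0.997).

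gma-miR167c_L+1_1ss22GT, the 22 nt form with 1 extra 5′ base, stood at 1484, 1332 and 1539 normalized reads in 8106 at 15 DAF, 2292, 2045 and 2430 at 35 DAF, 977, 1024 and 841 in 8107 at 15 DAF and 2068, 1739 and 1991 at 35 DAF. Within each line the stages did not overlap. It rose with stage in 8107 by 1.03 ± 0.12 (limma adjusted p = 6.06e-05), a call kept under all 4 other scalings (0.93 to 1.54), and in 8106 by 0.63 ± 0.12 (limma adjusted p = 0.00156), a call lost with both kinds of equal totals (0.03 and 0.27). At 15 DAF it was lower in 8107 (-0.62 ± 0.12, limma adjusted p = 0.00466). At 35 DAF the difference was -0.22 ± 0.12 (limma adjusted p = 0.137), and the scalings put it past the threshold in both directions, at 0.83 with equal totals and at -0.62 and -0.53 with median centring and quantile normalization. Its stage change differed between the lines by 0.39 ± 0.17 (limma adjusted p = 0.0814), called with equal totals (1.33). Its share of the 5p strand was 0.67 ± 0.06% and 0.52 ± 0.10% in 8106 and 0.48 ± 0.04% and 1.02 ± 0.16% in 8107 at 15 and 35 DAF (mean ± SD, n = 3).

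lus-miR167b_L+2, the 23 nt form with 2 extra 5′ bases, varied more within a group than the other abundant forms. It stood at 1353, 706 and 1074 normalized reads in 8106 at 15 DAF, 2040, 851 and 3277 at 35 DAF, 722, 397 and 537 in 8107 at 15 DAF and 602, 350 and 705 at 35 DAF, so that the library numbered 2 was the lowest in each of the 4 groups. It was lower in 8107 at 35 DAF (-1.75 ± 0.48, limma adjusted p = 0.0113), a call lost with equal totals (-0.70). With the replicate block 2 further differences were past the threshold, -0.91 between the lines at 15 DAF (limma adjusted p = 0.0223; 0.202 without the block; -1.16 and called with quantile normalization) and 0.82 between the stages of 8106 (limma adjusted p = 0.0265; 0.232 without it).

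The remaining guide forms were rare. mtr-miR167a_L+1R-2, 20 nt long, stood at 13.5, 14.9 and 15.1 normalized reads in 8106 at 15 DAF, 33.1, 83.4 and 24.4 at 35 DAF, 13.8, 24.7 and 8.05 in 8107 at 15 DAF and 13.4, 17.9 and 16.0 at 35 DAF. It rose with stage in 8106 by 1.43 ± 0.48 (limma adjusted p = 0.0378) and was lower in 8107 at 35 DAF (-1.33 ± 0.48, limma adjusted p = 0.0385). Both calls rested on the library of 83.4, without which they were 0.93 and -0.82 and not called, and each was also lost when any of 4 other libraries was left out, and with equal totals (0.85 and -0.31). csi-miR167b_L+1R-1 was listed above 0 in 5 libraries at 2.42 to 6.03 normalized reads, and gma-MIR167k-p5_2ss1AT17TG in the 3 libraries of 8107 at 35 DAF at 3.58 to 5.22, and neither reached the minimum for a test.

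**Figure D2:**
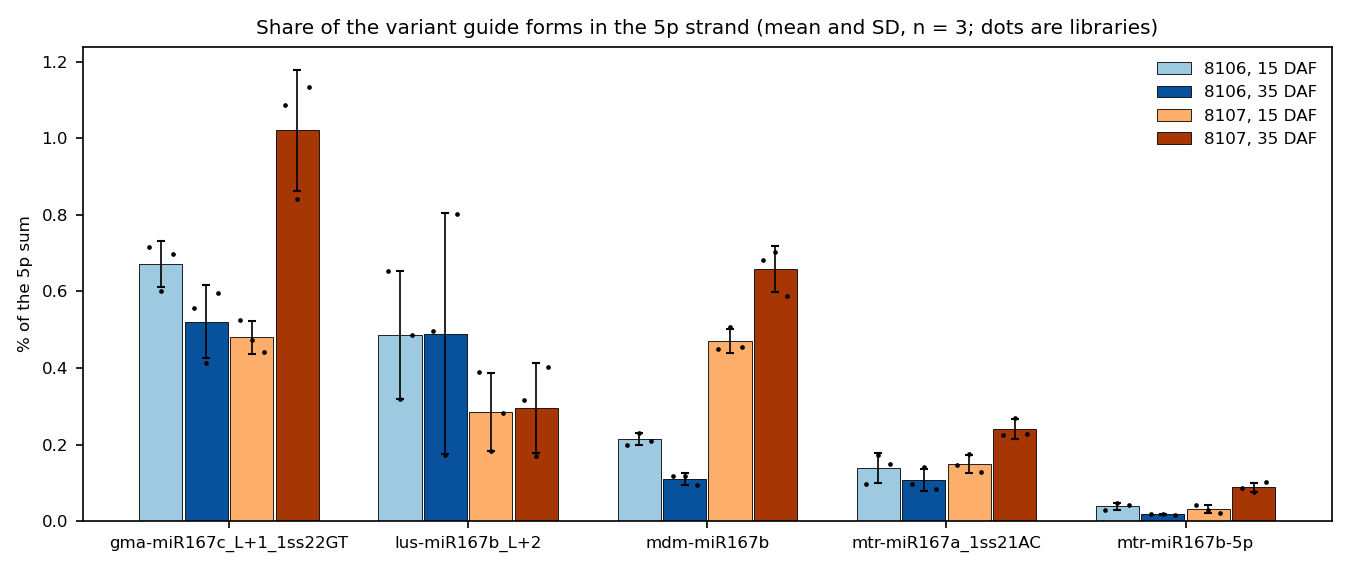
Share of 5 variant guide forms in the sum of the 5p strand (y axis, %), by form (x axis) and group of line and stage; bars are means, error bars SD over 3 libraries and dots the libraries. mdm-miR167b takes a larger share in 8107 than in 8106 at both stages, and gma-miR167c_L+1_1ss22GT is highest in 8107 at 35 DAF.

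ahy-miR167-3p_L-1, the main passenger strand, moved in the opposite direction between the lines. Its level was 1736, 1700 and 1638 normalized reads in 8106 at 15 DAF and 350, 480 and 327 at 35 DAF. In 8107 it was 1149, 1478 and 1272 at 15 DAF and 7987, 8979 and 7213 at 35 DAF. All 4 groups were apart, with 8106 lowest and 8107 highest at 35 DAF. By rank among the 795 entries it moved from 21 or 22 to between 48 and 61 in 8106, and from 31 or 32 to 10 in 8107.

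It fell with stage in 8106 by 2.15 on the log2 scale (-2.15 ± 0.16, limma adjusted p = 1.83e-06) and rose in 8107 by 2.63 ± 0.16 (limma adjusted p = 8.23e-07), which is 6.21-fold. At 35 DAF it was 21.1-fold higher in 8107 (4.40 ± 0.16, limma adjusted p = 5.24e-09), and the difference of the stage changes was 4.78 ± 0.22 (limma adjusted p = 1.76e-07). These 4 calls held under every other scaling, the line difference at 35 DAF ranging from 4.00 to 5.45 among them. At 15 DAF the difference was -0.39 ± 0.16 (limma adjusted p = 0.106). The replicate block put it past the threshold (limma adjusted p = 0.0224), as did quantile normalization (-0.90). So did sample quality weights (-0.40, limma adjusted p = 0.0036) and the compared groups alone (limma adjusted p = 0.042).

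mtr-MIR167a-p3_1ss14TC, a passenger of another sequence, stood at 47.9, 36.4 and 34.0 normalized reads in 8106 at 15 DAF. At 35 DAF all 3 libraries of 8106 listed it at 0. In 8107 it stood at 75.5, 65.1 and 78.1 at 15 DAF and 76.0, 66.3 and 54.5 at 35 DAF, so it did not share the rise of the ahy passenger there. Its stage difference in 8107 was -0.16 ± 0.23 (limma adjusted p = 0.611). At 15 DAF it was higher in 8107 by 0.88 ± 0.23 (limma adjusted p = 0.0226), a call lost when either of 2 libraries of 8106 (numbered 2 and 3) or of 8107 (numbered 1 and 3) was left out, at 0.79 to 0.85, and with quantile normalization (0.91) and median centring (0.64). Its share of the 3p strand was 2.27 ± 0.36% in 8106 and 5.38 ± 1.04% in 8107 at 15 DAF, and 0.80 ± 0.12% in 8107 at 35 DAF (mean ± SD, n = 3).

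Of the other passenger forms, ppe and sly reached 10 normalized reads in 8107 at 35 DAF only, and ptc in no library. ppe-MIR167c-p3_1ss11TG stood there at 49.9, 101 and 62.5 normalized reads, at 0, 4.79 and 5.23 in 8107 at 15 DAF, while the 6 libraries of 8106 listed it at 0. sly-miR167b-3p stood there at 32.8, 57.3 and 27.2 and was listed at 0 in the other 9 libraries. ptc-miR167f-3p_L-1_1ss11GA was listed in 1 library, at 5.37 normalized reads. ppe-MIR167c-p3_1ss11TG and sly-miR167b-3p passed the minimum for the test only through this group and so had to differ from the rest, and their calls add no support. The 3 libraries of 8107 at 35 DAF had an estimated 665313, 1178757 and 580011 reads, against 937056 to 3243195 in the other 9.

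The ratio of the strands was taken within each library, where a scaling factor per library cancels. The sum of the 5p forms was 116, 128 and 132 times that of the 3p forms in 8106 at 15 DAF and 152, 140 and 140.5 times in 8107 at 15 DAF. At 35 DAF it was 1177, 1033 and 1250.5 times in 8106 and 23.3, 22.5 and 23.8 times in 8107. The lines were close at 15 DAF and moved apart by 35 DAF, with no overlap between any 2 groups. As a share of all miR167 reads, the passenger strand was 0.752 to 0.853% and 0.656 to 0.709% at 15 DAF in 8106 and 8107, and 0.0799 to 0.0967% and 4.03 to 4.26% at 35 DAF.

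On the log2 scale the ratio averaged 6.97 ± 0.09 in 8106 at 15 DAF, 10.16 ± 0.14 in 8106 at 35 DAF, 7.17 ± 0.06 in 8107 at 15 DAF and 4.54 ± 0.04 in 8107 at 35 DAF (mean ± SD, n = 3). The differences were 0.20 between the lines at 15 DAF, -5.63 at 35 DAF, 3.20 between the stages of 8106 and -2.63 between those of 8107. In a two-sided exact permutation test of 3 against 3 libraries each gave p = 0.1, the smallest this design allows. With line labels permuted within each stage, the mean line difference of -2.71 gave an exact p = 0.1, and the difference of the stage changes of -5.83 gave an exact p = 0.005, the smallest of 400 arrangements (adjusted p = 0.03 over 6 tests).

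**Figure D3:**
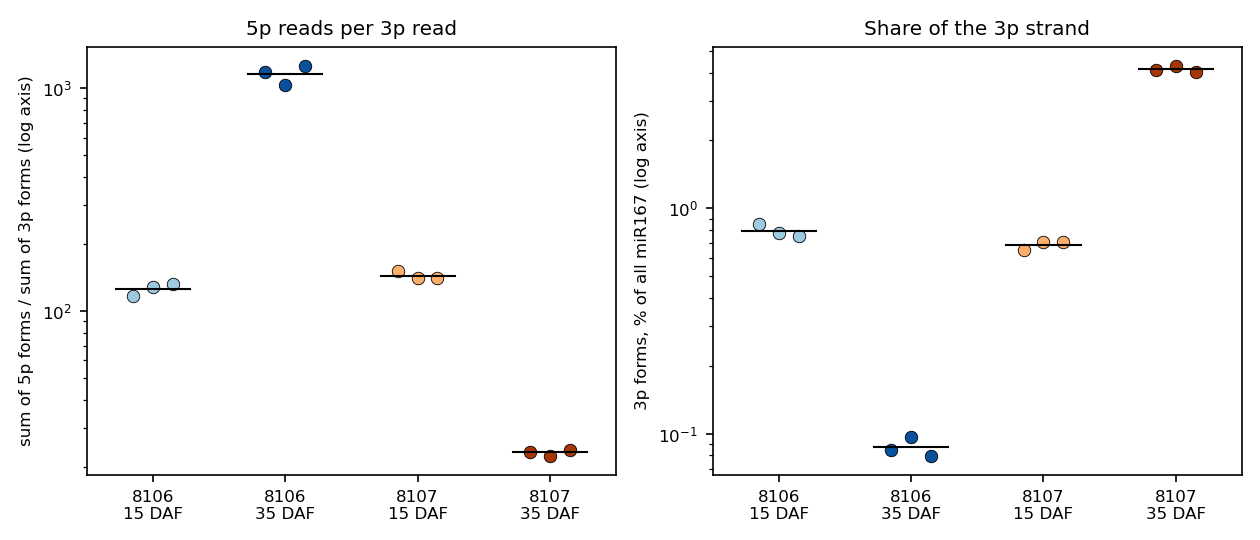
Left, sum of the 5p forms divided by the sum of the 3p forms; right, the 3p forms as a share of all miR167 reads (both y axes logarithmic), by line and stage; points are libraries and lines are group means. The 2 lines lie close together at 15 DAF and on opposite sides at 35 DAF.

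Summed by strand, the family gave the same directions as its leading members, which hold most of each sum. The 5p sum was 216437 ± 7806 and 438762 ± 49792 normalized reads in 8106 at 15 and 35 DAF, a rise of 1.01 ± 0.14 (limma adjusted p = 0.000193). The 3p sum was 1731 ± 56.5 and 386 ± 82.8 in 8106, against 1376 ± 163 and 8237 ± 929 in 8107 (mean ± SD, n = 3). At 35 DAF the 3p sum was 4.43 ± 0.15 higher in 8107 (limma adjusted p = 4.79e-09) and the 5p sum was lower (-1.20 ± 0.14, limma adjusted p = 4.42e-05), the latter call being lost with equal totals (-0.14) and quantile normalization (0). At 15 DAF the line difference of the 3p sum was -0.34 ± 0.15 (limma adjusted p = 0.151), past the threshold with the replicate block (limma adjusted p = 0.0371).

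Counted over entries, 11 of the 14 members were tested. At 15 DAF 2 were higher and 1 lower in 8107, where 22.5% of all entries tested were called in either direction. There the replicate block gave 5 calls, quantile normalization gave 1 higher and 3 lower, and median centring 0 and 1. At 35 DAF 6 were higher and 3 lower, against 52.4% of all entries called, while equal totals gave 8 higher and 0 lower, and median centring 5 and 4. With stage, 3 rose and 2 fell in 8106 (36.2% of all entries called; 1 and 3 with equal totals) and 5 rose and 0 fell in 8107 (46.3%; 7 and 0 with equal totals). The stage change differed for 6, of which 5 were higher in 8107 and 1 lower (41% of all entries called; 7 and 0 with equal totals, 4 and 0 with quantile normalization). The median log2 differences of the 11 were -0.04, 1.14, 0.05, 0.63 and 0.39 in these 5 comparisons, beside -0.09, 0.03, -0.24, 0.06 and 0.52 over all entries. ppe-MIR167c-p3_1ss11TG and sly-miR167b-3p are in these counts and medians. Without these 2 the middle value between the lines at 35 DAF was -0.02, that of mtr-miR167a_1ss21AC. Between the stages of 8107 it was 0.43, that of mdm-miR167b. The medians of 1.14 and 0.63 therefore add no support for a shift of the family. The rise count in 8107 fell to 3 without any 1 of its 35 DAF libraries, since the ppe and sly forms then no longer reached the minimum. In the same settings the line difference at 35 DAF gave 4 higher and 2 lower. The stage change then differed for 4, of which 3 were higher in 8107 and 1 lower.

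**Figure D4:**
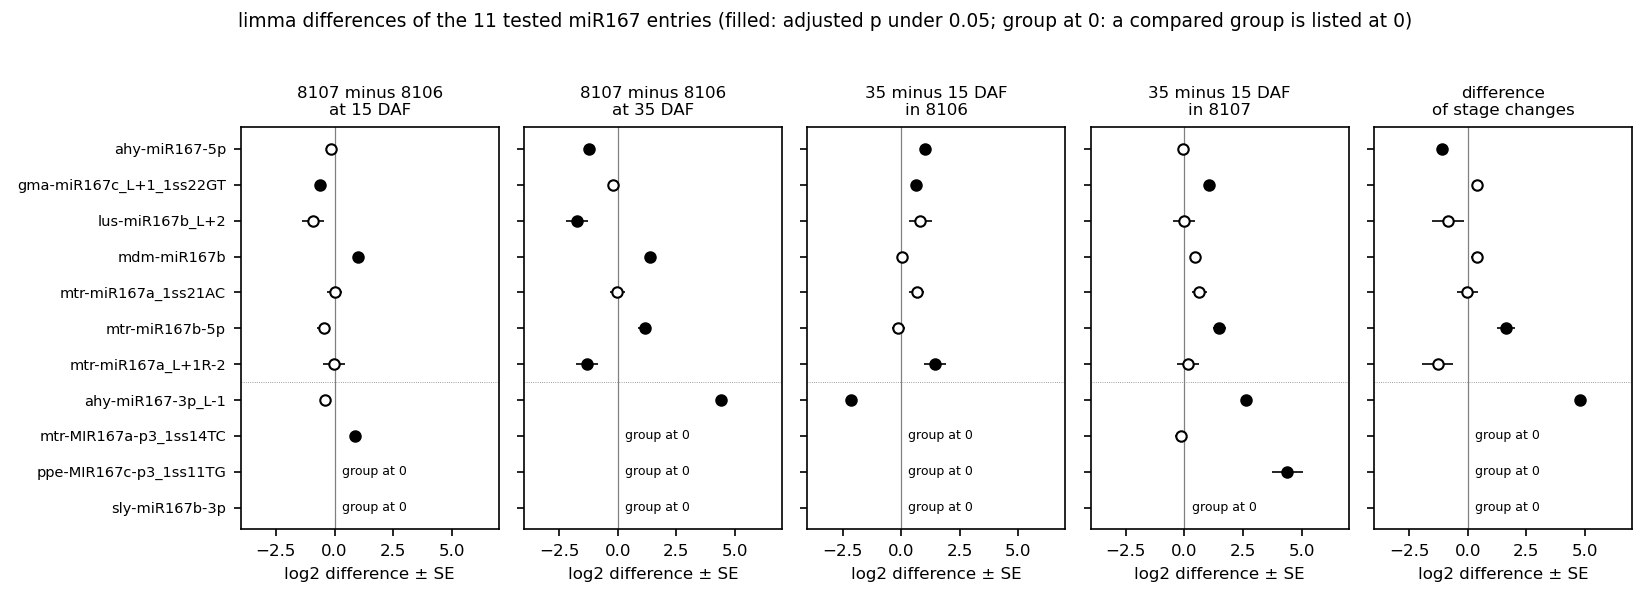
log2 difference ± SE (x axis) of the 11 tested entries in the 5 comparisons, guide forms above the dotted line and passenger forms below; filled circles have a limma adjusted p under 0.05, and no value is drawn where a compared group is listed at 0. ahy-miR167-3p_L-1 lies on opposite sides of 0 for the stage changes in 8106 (-2.15) and 8107 (2.63), while the guide forms stay within 1.75 of 0.

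Among 226 known entries of other families, those most like ahy-miR167-5p over the 12 libraries, by Pearson r of log2(normalized reads + 1), were mtr-MIR2118-p5_2ss14TC18TC (r = 0.986, Spearman rho = 0.958), ppe-miR156a_R+1_1ss5AG (0.929 and 0.650) and ahy-miR394_L+1_1 with ahy-miR394_L+1_2, whose values are identical (0.884 and 0.923). Those most like ahy-miR167-3p_L-1 were mtr-miR2199_1ss17AG (0.989 and 0.916), mtr-miR1507-5p_R-1_2ss5TA18AG (0.973 and 0.972) and mtr-miR172c-5p (0.954 and 0.951). mtr-miR1507-5p_R-1_2ss5TA18AG stood at 155 ± 15.8 and 57.2 ± 24.99 normalized reads in 8106 and 94.0 ± 15.0 and 597 ± 143 in 8107 at 15 and 35 DAF (mean ± SD, n = 3). These likenesses describe 4 groups of libraries that share their depth and scaling, and were not tested.

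The degradome reads the 5′ ends of cut mRNAs, and the authors' table has 3630 lines, each with a small RNA and a site, on 1196 transcripts, with an alignment score from 0 to 4 in which a lower value is a closer match. It names no library, so no site can be assigned to a line or stage. The guide forms had 67 of these lines, on 18 transcripts, of which 14 carried the symbol of an auxin response factor. ARF12, the name of a miR167 target in rice, was listed on 8 transcripts, ARF6 on 5 and ARF8 on 1. How many genes these transcripts stand for is not given, so the counts do not rank the targets. All 55 lines of ARF symbols for the guide forms had the score 4, the highest in the table, and no other small RNA was listed on the 18 transcripts.

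The forms shared some targets, each ARF transcript being listed for 2 of them. ahy-miR167-5p, by far the most abundant form, had no ARF transcript. Its 2 transcripts were MED12, a subunit of the Mediator kinase module (score 3.5), with the site at base 19 of each. mtr-miR167a_1ss21AC, which differs from ahy-miR167-5p only at the last base, had 15 transcripts, namely all 8 of ARF12, all 5 of ARF6 and both of MED12. All ARF lines of the guide forms stood at the highest score listed. Whether that limit kept ahy-miR167-5p off the ARF transcripts was not tested. csi-miR167b_L+1R-1, at most 6.03 normalized reads in a library, had 12, namely 8 of ARF12, 3 of ARF6 and 1 of ARF8. mtr-miR167a_L+1R-2 had the other 2 transcripts of ARF6. mdm-miR167b had the ARF8 transcript and 2 of CYP750A1, a cytochrome P450 (score 3.5), and mtr-miR167b-5p had the same 2 of CYP750A1 (score 4). gma-miR167c_L+1_1ss22GT and lus-miR167b_L+2 had no line, nor had any passenger form. A line lists which small RNA name was matched to a site, and the cut end alone does not tell which of the forms with the same 5′ start made it.

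**Figure D5:**
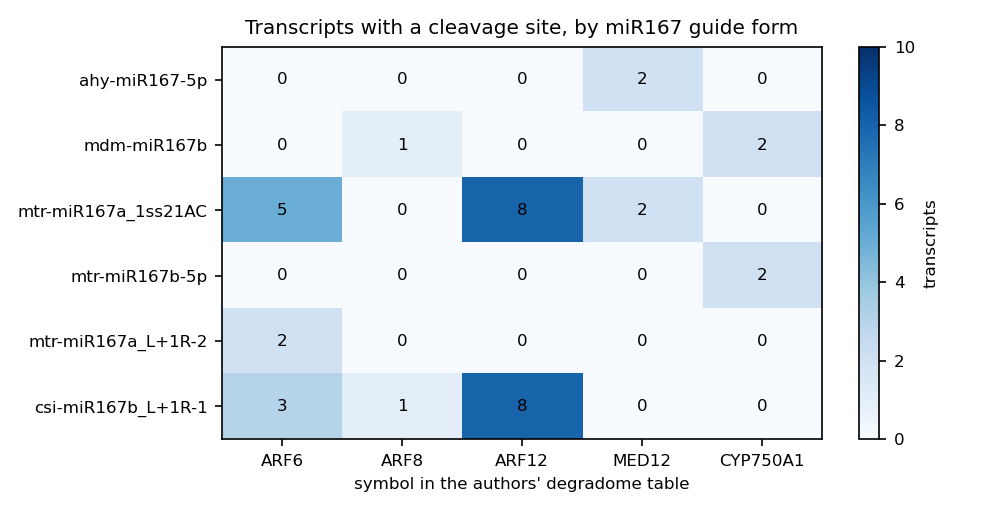
Number of transcripts with a listed degradome site (shade and printed number) for each miR167 guide form (rows) and symbol of the authors' table (columns). ARF6 and ARF12 are listed mainly for mtr-miR167a_1ss21AC and csi-miR167b_L+1R-1, and ahy-miR167-5p is listed only for 2 transcripts of MED12.

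The sites of forms that differ by 1 base at the 5′ end lay 1 nucleotide apart. On ARF12 transcripts the site was at 2321, 2318 or 2228 for mtr-miR167a_1ss21AC and at 2322, 2319 or 2229 for csi-miR167b_L+1R-1, and on an ARF6 transcript it was at 2471 for mtr-miR167a_1ss21AC and 2472 for mtr-miR167a_L+1R-2 (positions in the transcript, as the authors' table gives them). On the ARF8 transcript it was at 2238 for mdm-miR167b and 2239 for csi-miR167b_L+1R-1. Of the 74 combinations of miR167 name, transcript and site, 31 were listed 2 times and 43 once. Among the ARF combinations of the guide forms, 1 was listed once, that of csi-miR167b_L+1R-1 on ARF8, and both names on CYP750A1 were listed once per transcript.

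gma-MIR167k-p5_2ss1AT17TG, the 19 nt piece without the guide's bases, had 38 transcripts, each listed once and none an ARF. They included 10 of VHA-H, a subunit of the vacuolar proton pump, 3 each of At5g43745 and Xab2, 2 each of CYCD1-1, a D-type cyclin, and NDB1, a mitochondrial NADH dehydrogenase, 1 each of At3g23020, CHUP1, CIT and smc, and 14 with no symbol. Their scores ran from 3 to 4.

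Other small RNAs of the auxin pathway gave the comparison for these targets. miR160, which in Arabidopsis targets another group of ARF mRNAs, was listed on 2 transcripts of ARF10, 2 of ARF16, 4 of ARF17, 6 of ARF18 and 1 of ARF8, with a lowest score of 0.5 on ARF17, and shared 0 transcripts with miR167. miR393, which targets the auxin receptor mRNAs TIR1 and AFB2, was listed on 4 and 2 transcripts, with lowest scores of 1 and 2. miR390, which sets off the tasiRNAs that target ARF mRNAs, had no line for these symbols.

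Of the 11 tested entries of miR160, miR390 and miR393, 1 was higher in 8107 at 15 DAF, beside 22.5% of all entries called, and 7 were higher and 1 lower at 35 DAF, beside 52.4%. With stage, 5 fell and 0 rose in 8106, beside 36.2%, and 2 rose and 4 fell in 8107, beside 46.3%. The 2 that rose, mtr-miR393a_R+1_1 and mtr-miR393a_R+1_2, have the same value in every library, so they do not count as independent entries here or among the 7. They averaged 41.5 normalized reads in 8107 at 35 DAF and 4.01 to 9.58 in the other groups. They reached the minimum for the test only with the help of 8107 at 35 DAF, so their calls add no support. mtr-miR390 stood at 485 ± 54.8 and 76.9 ± 18.9 normalized reads in 8106 and 840.2 ± 98.8 and 589 ± 110 in 8107 at 15 and 35 DAF (mean ± SD, n = 3), and was higher in 8107 at 35 DAF by 2.93 ± 0.19 (limma adjusted p = 4.96e-07). mtr-miR160a stood at 3206 ± 472 and 2759 ± 669 in 8106 and 3922 ± 682 and 1386 ± 243 in 8107, and was lower in 8107 at 35 DAF (-0.98 ± 0.21, limma adjusted p = 0.00253). The median log2 difference of these 11 at 35 DAF was 1.89, and that of the 5 miR160 entries was -0.98. Without the 2 miR393 entries of equal value the middle value was 0.59, that of gma-MIR160e-p3_1ss5GA. With equal totals the median line difference of all entries at 35 DAF moved from 0.03 to 1.01. How the calls and medians of these 11 entries depend on scaling was not tested.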

How the data were processed

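Small RNA reads from 12 seed libraries and cleavage sites from 2 degradome libraries were analysed as deposited. Per the file headers, each small RNA column is a signal in normalized reads of 1 library; the normalization method is one not given in the sources used here. In 1 library a block of lines is shifted by 1 column, so that its deposited column mixes values and sequences and was recorded as a score; scripts realigned it. The degradome table gives the authors' alignment score, per the file headers. Per the labels' protocols, libraries were sequenced as single reads of 50 bases, and the submitters' processing notes name Bowtie. No genome was used here, and 0 of the 56 transcripts of miR167 names matched the reference table of gene symbols.

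Lines of 1 sequence were merged (1082 lines, 795 sequences). Since no counts were given, limma 3.58.1 (R 4.3.3) with a trend was fitted to log2(value + 1) of the 395 entries that reached 10 in 3 or more libraries, with 1 mean per group. The fit was first tested on simulated data. Strand sums replaced their members as 1 row each. Strand ratios were compared with exact permutation tests (NumPy 2.4.6) and duplexes folded with RNAduplex 2.7.2. Spearman rho was computed with SciPy 1.17.1. Depth was estimated from the step between low values of a library, within a tolerance of 0.02 steps.

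Same-numbered libraries deviated together in 3 comparisons, with every correlation over 0.1: 0.42, 0.54 and 0.15 between the lines at 15 DAF, 0.32, 0.68 and 0.12 between the stages of 8106, and 0.16, 0.51 and 0.26 between those of 8107. For the libraries numbered 3 another number correlated more in each of these (0.26, 0.59 and 0.37). Correlations were 0.04, 0.66 and 0.54 between the lines at 35 DAF, the first of them under 0.1. The main fit took no numbers as pairs, and the replicate block was fitted over all 12 libraries, those at 35 DAF included. Alternatives were another pseudocount or filter, 3 other scalings and 1 chosen after seeing the data, the replicate block, sample quality weights, the compared groups alone, and each library left out. Full values were given for the 4 most abundant entries of each strand and for entries passing in 2 or more comparisons, the others by range. Members, lists and rules were chosen with earlier results of these data known.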

Additional observations from a re-analysis of the deposited data

Results flagged for a closer look

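The change from 15 to 35 DAF differed between the lines, by a test of that difference, for several miR167 values. The difference of the stage changes (8107 minus 8106, log2 scale) was -1.08 for ahy-miR167-5p, 4.78 for ahy-miR167-3p_L-1 and 1.61 for mtr-miR167b-5p in limma over all entries. For the sums it was -1.06 for the 5p forms, 4.77 for the 3p forms and -1.003 for all forms together. The log2 ratio of the 5p to the 3p sum gave -5.83, with an exact permutation p = 0.005, the smallest that 400 arrangements allow. mtr-MIR167a-p3_1ss14TC also passed this test, but it was listed at 0 in a whole group, so no size is given. The calls of ppe-MIR167c-p3_1ss11TG and sly-miR167b-3p add no support, since both reached the minimum for the test only through 8107 at 35 DAF.

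The differences of ahy-miR167-5p and of the 5p and total sums were no longer called with equal library totals, whereas those of ahy-miR167-3p_L-1, mtr-miR167b-5p and the 3p sum were. Estimated depth moved with the groups, at 580011 to 1178757 reads in 8107 and 1482576 to 3243195 in 8106 at 35 DAF, and its part in these differences was not tested. The value of 3243195 is the less certain estimate of library 2 of 8106 at 35 DAF. The ratio is taken within a library, so a scaling factor per library does not change it.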

How the results depend on the processing

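The number of miR167 entries called moved by over 1.5 times in 6 cases, besides leaving out any 1 of the 3 libraries of 8107 at 35 DAF. At 15 DAF the 3 became 1 with median centring, 5 with the replicate block and 7 with sample quality weights. For the stages of 8107 the 5 became 3 with a minimum of 50 and 8 with equal totals of entries other than miR167, and leaving out a library gave 3 to 5, with 3 for each of those libraries. For the stages of 8106 the 5 became 3 with equal totals of entries other than miR167. The 5p sum gave -0.14, -0.21 and 0 between the lines at 35 DAF, and -0.13, -0.18 and -0.29 for the difference of stage changes, with equal totals, equal totals of entries other than miR167 and quantile normalization, none of them called. Its rise in 8106 was 0.29 with quantile normalization, not called, and its stage difference in 8107 turned to 0.28 and 0.47, both called, with the 2 kinds of equal totals. The 3p sum at 15 DAF was called with quantile normalization (-1.01), the replicate block (-0.34) and sample quality weights (-0.34). The ratio for the stages of 8107 was -2.70 from the most abundant entry of each strand. Among single entries, the stage difference of ahy-miR167-5p in 8107 turned to 0.45, that of mdm-miR167b in 8106 to -0.56, and the line difference at 35 DAF to 0.83 and 0.77 for gma-miR167c_L+1_1ss22GT and to 1.03 and 0.97 for mtr-miR167a_1ss21AC, all with equal totals of one kind or the other. The causes were not tested.

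With the replicate block, the counts were 5, 9, 7, 7 and 6 in the 5 comparisons, no miR167 call was lost, and those gained are given with the results. Only 3 libraries a group, values with no stated normalization and a listing floor of about 6 reads limit the low forms most.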
